A study of Mus musculus with 11 samples.

Results

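The regulators that set photoreceptor identity were followed as 10 named rows of the deposited count matrix, which holds 25311 genes: Crx, Otx2, Nrl, Nr2e3, Rorb, Thrb, Rxrg, Prdm1, Neurod1 and Samd7. They were chosen by name, all 10 were found, and their unique molecular identifier (UMI) counts were read in each retinal cell class and in each of the 4 groups of mice. The data are single-cell RNA profiles made by inDrop droplet capture of whole dissociated retinas from C57BL/6J mice at postnatal day 10, with 11 mice in all. The control group (3 mice) received PBS vehicle, 3 received streptozotocin (STZ), which causes hyperglycemia and models the early phase of retinopathy of prematurity (Phase I ROP), 2 received STZ with an ω-3 fatty acid diet and 3 received STZ with an ω-6 fatty acid diet. By the labels, control and STZ pups were littermates, and so were the pups of both diets, which were divided between a cage for each diet. The diet reached the pups through the nursing dam, so diet, dam and cage cannot be told apart.

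Photoreceptors arise from postmitotic precursors that express Otx2, a homeodomain protein that switches on its relative Crx, and Crx then drives much of the photoreceptor gene programme. Rorb, a nuclear receptor, and Nrl, a basic leucine zipper protein, direct precursors to the rod fate, and Nr2e3, an orphan nuclear receptor downstream of Nrl, represses cone genes in rods. Thrb, a thyroid hormone receptor, and its partner Rxrg set the opsin pattern of cones. Prdm1 is a repressor that keeps precursors from becoming bipolar cells, Neurod1 is a basic helix-loop-helix factor needed for photoreceptor differentiation and survival, and Samd7 is a Polycomb-associated protein that keeps non-rod genes silent in rods. Otx2 is also used by bipolar cells and by the retinal pigment epithelium, and Rorb by several inner retinal neurons.

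Because Crx and Otx2 recognise the same short core, TAATCC, the 250 bases before each RefSeq transcription start of the 10 genes were searched for it on both strands. It was present in 4 of 16 such windows, 25%, against 6.25% of all 32817 RefSeq promoter windows of the same length. The 4 windows belong to Crx (chr7:15879956-15880205, minus strand), Samd7 (chr3:30746043-30746292, plus strand), Thrb (chr14:17660710-17660959, plus strand) and the Otx2 start at the third of its 4 listed positions (chr14:48665110-48665359, minus strand). They are printed 5′ to 3′ along the gene (RefSeq, GRCm38.p6), with the core, which in all 4 reads as its reverse complement GGATTA, in capitals:
Crx: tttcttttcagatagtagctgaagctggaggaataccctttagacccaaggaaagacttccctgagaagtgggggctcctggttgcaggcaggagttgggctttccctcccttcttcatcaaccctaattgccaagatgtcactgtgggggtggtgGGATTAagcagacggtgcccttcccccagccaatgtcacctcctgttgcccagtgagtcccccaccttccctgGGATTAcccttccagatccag
Samd7: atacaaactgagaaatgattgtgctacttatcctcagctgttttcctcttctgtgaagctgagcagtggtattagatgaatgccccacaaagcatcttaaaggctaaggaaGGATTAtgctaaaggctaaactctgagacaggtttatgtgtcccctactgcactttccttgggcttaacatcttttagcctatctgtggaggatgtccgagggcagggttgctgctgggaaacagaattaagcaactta
Thrb: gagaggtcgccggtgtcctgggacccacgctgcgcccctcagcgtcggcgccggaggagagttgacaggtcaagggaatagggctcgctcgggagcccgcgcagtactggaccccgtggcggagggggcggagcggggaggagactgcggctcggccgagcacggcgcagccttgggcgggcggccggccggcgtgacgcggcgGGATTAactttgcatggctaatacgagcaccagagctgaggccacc
Otx2: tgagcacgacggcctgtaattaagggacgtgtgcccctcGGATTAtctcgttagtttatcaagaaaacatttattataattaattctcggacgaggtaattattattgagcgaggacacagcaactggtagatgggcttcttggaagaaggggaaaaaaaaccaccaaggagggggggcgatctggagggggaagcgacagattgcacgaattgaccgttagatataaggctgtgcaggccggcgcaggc
The Crx window held the core at 2 places and the others at 1. The Nrl core TGCTGA was in 3 of the 16 windows (18.8%, against 16.1% of all), the E-box CAGATG in 2 (12.5%, against 14.5%) and the Ror core AGGTCA in 2 (12.5%, against 14.0%), again on both strands. These are matches of letters, given as a description. Nr2e3 and Prdm1 held none of the 4 motifs in this window. In the GRCm38 annotation, exons of Otx2 overlap Otx2os1 on the opposite strand, exons of Nr2e3 overlap Gm15507, and exons of Neurod1 overlap Cerkl and Gm26755, so reads of these genes could be shared.

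After cells with 300 or fewer genes were left out, 20033 cells remained, and their clusters were named from marker genes. None of the 10 genes was among the 2000 variable genes used for clustering. A class below means cells that resemble that type by its markers: 9967 rods, 1126 cones, 3596 bipolar cells, 3287 amacrine cells and 1425 Müller glia carried the comparisons, and the rarer types were too few in single mice. Control mice gave far fewer cones (14, 13 and 46 cells) than the STZ mice (96 to 134). Rods made up 24.8 to 31.9% of control cells and 47.2 to 55.2% of STZ cells, and bipolar cells 29.9 to 33.7% and 15.9 to 18.0%. The control libraries also stood apart: 5 noncoding and mitochondrial ribosomal RNAs summed to 34830 to 49790 CPM (UMIs scaled to a common total per library or class sum) there against 6138 to 10796 in the STZ libraries, while 24 immediate early genes summed to 302 to 547 against 2849 to 3559. Treatment and the handling of these libraries therefore cannot be told apart, and this holds for every comparison with the control group. Totals per mouse ran from 2565568 to 6517776 UMIs, and 1157 of 18872 distinct cell barcodes occurred in 2 or more libraries.

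Each gene had its own order of classes. In the mean over the 11 mice, Nrl was at 1649 CPM in rods, 784 in cones, 133 in Müller glia, 132 in bipolar cells and 53.3 in amacrine cells. Nr2e3 followed a like order, with 2769 CPM for rods, 1489 for cones, 235 for bipolar cells, 203 in Müller glia and 87.0 in amacrine cells. For both genes rods were above cones in 11 of 11 mice, yet the gap varied so much between mice that its mean on the log2 scale was smaller than its SD (3.02 against 3.54 for Nrl and 2.99 against 3.99 for Nr2e3), because the cones differed between groups. Samd7 was at 314 CPM in rods and 207 in cones, a gap also within its spread, and at 30.9 or less in the other 3 classes.

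The 2 genes known for cone opsin patterning had the opposite order. Thrb was at 346 CPM in cones and 65.8 in rods, with cones higher in 11 of 11 mice and the mean gap of 2.44 beyond its SD of 0.74 (log2). Rxrg was at 78.9 CPM in cones and 8.84 in rods, again in 11 of 11 mice (mean gap 3.03, SD 1.29), and the rod and amacrine levels (8.79) did not differ beyond their spread.

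Crx, Neurod1 and Otx2 spanned photoreceptors and bipolar cells. Crx was at 1033 CPM in cones, 907 in rods and 345 among bipolar cells. Cones led rods in 10 of 11 mice by a mean of only 0.20 (SD 0.20), and rods came first when the class sums were scaled by trimmed means. Neurod1 fell in steps that were each beyond their spread from rods (1490) to cones (1041), bipolar cells (383) and amacrine cells (111), where it was close to Müller glia (101). Otx2 was highest in bipolar cells, at 1109 CPM against 608 in rods, in 11 of 11 mice, and was at 441 in cones, 69.5 in Müller glia and 32.3 in amacrine cells.

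Rorb was the most evenly spread of the 10. It was at 390 CPM in rods, 336 in Müller glia, 283 and 270 for bipolar and amacrine cells and 227 for cones, and no neighbours in that order differed beyond their spread. Prdm1 was scarce, at 56.4 CPM in rods and 42.9 in cones, which rods exceeded in 7 of 11 mice, and at 20.7 or less elsewhere. In cells of the rarer types, pooled over mice, Otx2 was at 608 CPM in the retinal pigment epithelium and Rorb at 290 in horizontal cells.

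**Figure D1:**
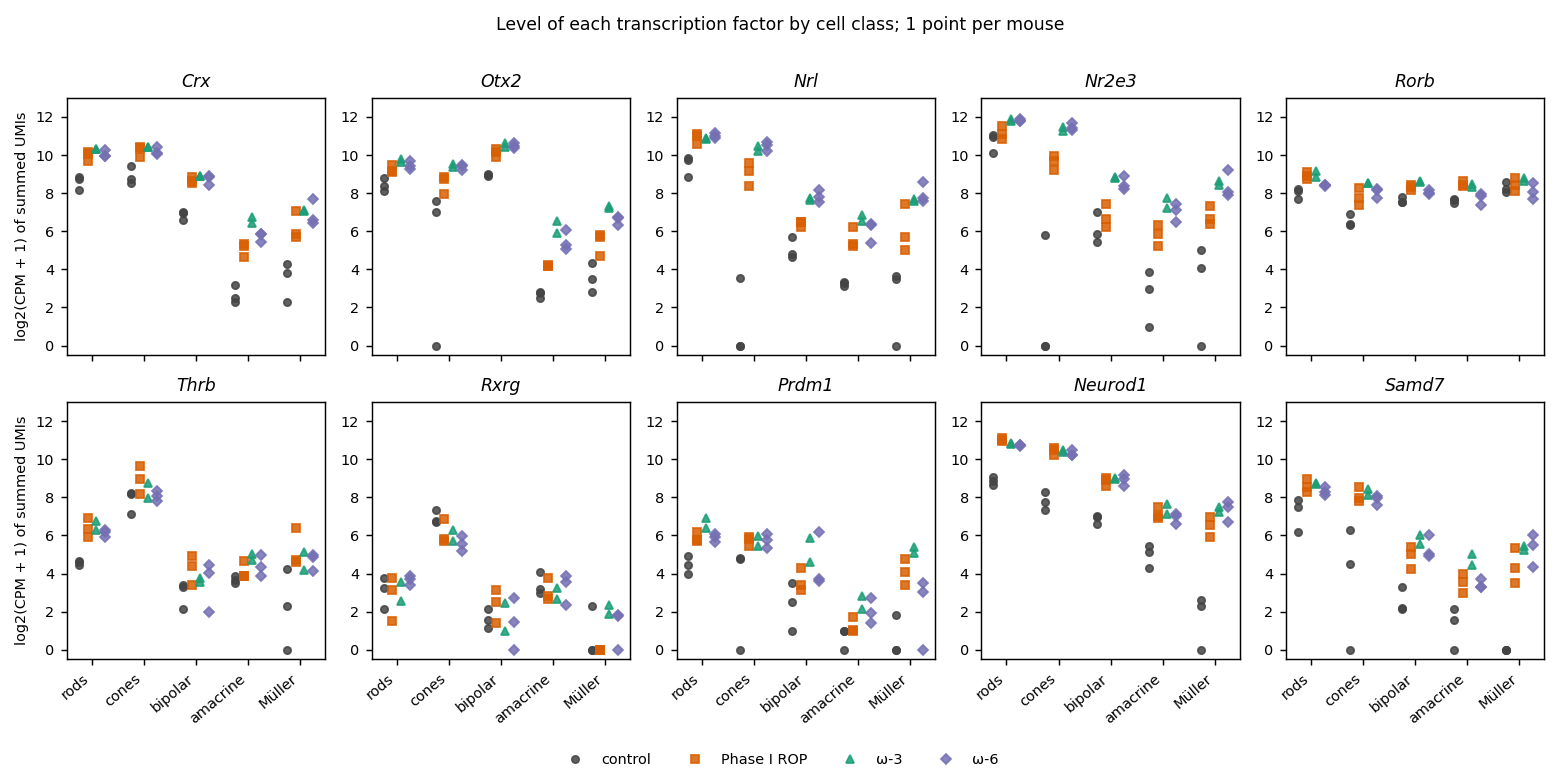
Level of each of the 10 genes (CPM, log axis) in 5 retinal cell classes, with 1 point per mouse coloured by group. Nrl, Nr2e3 and Samd7 lie highest in rods, Thrb and Rxrg in cones and Otx2 in bipolar cells, and the control cones lie far below the other cones for Nrl and Nr2e3.

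Most cells of the photoreceptor classes carried several of the factors at once. The median rod had UMIs of 4 of the 10 genes and the median cone of 5, against 2 for the bipolar class and 1 each for amacrine cells and Müller glia. Only 3.43% of rods and 3.11% of cones had a UMI of none of them, compared with 39.2% of amacrine cells and 45.8% of Müller glia. Cells differed in depth (median 1054 UMIs in rods, 2998 in cones and 3053 in amacrine cells), so these counts are not on an equal footing.

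The comparison of STZ with control mice asks how hyperglycemia bears on the retina in Phase I ROP, and here on the photoreceptor regulators within each class. In rods, 6 of the 9 factors that could be tested were higher in Phase I ROP and none was lower (edgeR, adjusted over all genes tested), beside 18.4% of all 7972 genes called higher and a median of 0.04. Rods sat in different clusters in the groups: cluster 0, which leads with rod genes, held 38.5 to 59.5% of control rods and 79.2 to 87.2% of Phase I ROP rods, and clusters 6 and 9, which have no rod marker among their leading genes, held 7.47 to 30.8% and 9.64 to 16.6% of control rods against 2.38 to 7.42% and 1.10 to 3.53%. With the clusters named by leading genes alone, 8 of 9 were called, but the share of all genes called under that choice is not given. The early factors Crx and Neurod1 both rose. Neurod1 was at 538, 406 and 468 CPM in the control mice and at 1982, 2063 and 2227 in the Phase I ROP mice, without overlap, a log2 change of 1.80 ± 0.23 (SE; adjusted p = 2.62e-05, n = 3 and 3). Crx was at 434, 283 and 459 CPM against 811, 1050 and 1162, again without overlap, a change of 1.00 ± 0.24 (adjusted p = 0.0036).

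Among the rod determinants of the rods, Nrl rose and Nr2e3 did not pass the test. Nrl, which commits a precursor to the rod fate, was at 917, 461 and 851 CPM in control rods and 1552, 2075 and 2237 in Phase I ROP rods, a change of 1.04 ± 0.27 (adjusted p = 0.00623). Nr2e3, its downstream partner, was at 1976, 1104 and 2151 CPM against 1804, 2169 and 2934, with overlapping groups and a change of 0.05 ± 0.28 (adjusted p = 0.896). The lowest control mouse for both genes was replicate 2.

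The repressors Samd7 and Prdm1 were also higher in Phase I ROP rods. Samd7 was at 233, 71.9 and 180 CPM in the control mice and 306, 371 and 489 in the Phase I ROP mice, a change of 0.90 ± 0.30 (adjusted p = 0.027). Prdm1 was at 20.8, 29.6 and 14.7 CPM against 51.8, 71.9 and 52.8, a change of 1.16 ± 0.40 (adjusted p = 0.0305). Prdm1 passed the expression filter only with the Phase I ROP mice, so the filter partly set the count called in rods. Neither gene's groups overlapped, but single mice decided both calls. The Prdm1 call was lost without control replicate 3 (edgeR adjusted p = 0.126) or any 1 of the Phase I ROP mice (0.0505 to 0.0976), and the Samd7 call without control replicate 3 (0.0564) or Phase I ROP replicate 2 (0.0538) or 3 (0.124).

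Thrb, the cone receptor, rose in rods from a low level. Its values there were 24.3, 21.1 and 23.1 CPM in the control mice and 79.1, 59.1 and 121 in the Phase I ROP mice, a change of 1.59 ± 0.38 (adjusted p = 0.00426). Otx2 (0.46 ± 0.23, adjusted p = 0.125) and Rorb (0.54 ± 0.22, adjusted p = 0.0678) had non-overlapping groups on the CPM scale but did not pass, and Rxrg was too scarce in rods to test. Scaling by total UMIs in place of the trimmed mean (chosen after the data were seen) moved the median of all genes to 0.36 in rods and called 8 of the 9. It also changed the split of all calls in rods from 1463 higher and 1571 lower to 2351 and 1127.

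**Figure D2:**
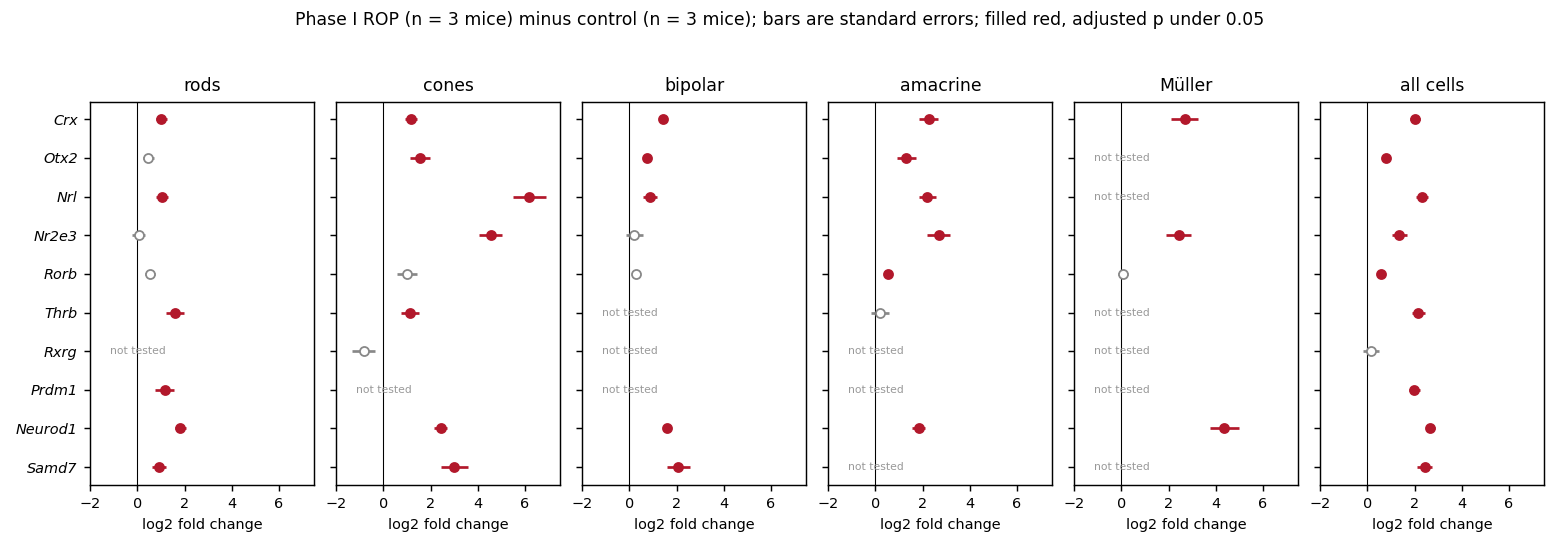
Log2 change of each factor in Phase I ROP minus control (n = 3 and 3 mice), by class and over all cells, with bars of 1 SE; filled points passed an adjusted p of 0.05 by edgeR. Filled points all lie to the right of 0, and among the points drawn the longest shifts are those of Nrl and Nr2e3 in cones.

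In cones, the factors with the largest fitted changes were Nrl and Nr2e3. Of 9 tested, 7 were higher in Phase I ROP and none was lower, beside 10.9% of all 3125 genes called higher and a median of 0.10. The count comes from only 73 control cones, and it fell to 4 when the sums were thinned to equal depth. It was also partly set by the expression filter. Nrl, Nr2e3 and Samd7, with 1, 5 and 5 control UMIs, passed the filter only with the Phase I ROP mice. So did Otx2, which had no UMI in the cones of a control mouse. Total-UMI scaling called 8 and moved the median of all genes to 0.42 and the split of all calls from 340 higher and 247 lower to 644 and 135.

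The rod determinants Nrl and Nr2e3 were near the limit of detection in control cones and plain in the cones of the other groups. Nrl was at 0, 0 and 10.8 CPM in the control mice, a total of 1 UMI of 168167, and at 335, 776 and 565 in the Phase I ROP mice, a total of 395 UMIs of 709704. The ratio of the pooled levels was 93.6, with a counting interval of 16.7 to 3706. Nr2e3 was at 0, 0 and 53.9 CPM against 584, 983 and 833, or 5 UMIs against 568, a ratio of 26.9 (11.5 to 83.2). By edgeR the changes were 6.18 ± 0.70 for Nrl (adjusted p = 4.44e-06) and 4.54 ± 0.48 for Nr2e3 (adjusted p = 2.07e-06), sizes that depend on the prior count because the control levels are so low. Counting intervals cover counting error only.

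Samd7 and the early factors followed. Samd7 was at 0, 78.1 and 21.6 CPM in control cones and 222, 245 and 373 in Phase I ROP cones, a change of 3.01 ± 0.58 (adjusted p = 0.00113). Neurod1 was at 162, 312 and 216 CPM against 1194, 1411 and 1569, a change of 2.43 ± 0.27 (adjusted p = 3.23e-06). Crx was at 675, 365 and 421 CPM against 950, 1354 and 1312, a change of 1.17 ± 0.25 (adjusted p = 0.00239). All 3 genes were without overlap between the groups. Otx2 was at 189, 0 and 129 CPM against 244, 461 and 424, a change of 1.55 ± 0.44 (adjusted p = 0.017) that was lost without control replicate 3 (0.0593) or Phase I ROP replicate 2 (0.0778) or 3 (0.0742).

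Of the cone receptors, Thrb passed the test in cones and Rxrg did not, and the difference between them was not tested. Thrb was at 297, 286 and 140 CPM in control cones and 285, 503 and 812 in Phase I ROP cones, a change of 1.13 ± 0.38 (adjusted p = 0.0381) with overlapping groups. It lost the call without control replicate 3 (edgeR adjusted p = 0.249) or Phase I ROP replicate 2 (0.0778) or 3 (0.181). Rxrg was at 162, 104 and 108 CPM against 54.3, 51.7 and 116, the only negative change among the 9, at -0.84 ± 0.50 (adjusted p = 0.235), and it did not pass in any of 16 alternatives. Rorb was at 81.0, 78.1 and 119 CPM against 217, 306 and 163 (0.99 ± 0.43, adjusted p = 0.103).

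Rod transcripts moved in these cone cells along with the rod factors. The 9 rod markers summed to 5807 to 7506 CPM in control cones, most of it Sag, Gngt1 and Pdc, with Cnga1 at 0, Gnat1 at 0 to 26.0 and Pde6b at 0 to 10.8. They summed to 12530 to 17054 in Phase I ROP cones, 21179 to 24510 with the ω-3 diet and 22671 to 26971 with the ω-6 diet. The 8 cone markers ran the other way, at 29506 to 33587, 17863 to 20535, 10130 to 11524 and 9416 to 10306. The part of these rod transcripts in the Nrl and Nr2e3 values was not tested.

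Cell by cell, a Nrl UMI was seen in 1 of 73 control cones (1.37%, exact 95% interval 0.035 to 7.40, which covers counting error over pooled cells and not the spread between mice), 140 of 343 Phase I ROP cones (40.8%), 235 of 296 ω-3 cones (79.4%) and 345 of 414 ω-6 cones (83.3%). Thinned to 500 UMIs per cell, with 9 shallower cells left out, the shares were 0, 19.0, 42.7 and 43.7%. Amacrine cells, which should lack Nrl, gave thinned shares of 0.418, 1.92, 4.05 and 2.75% and unthinned shares of 3.34, 8.84, 16.6 and 11.7%, at median depths of 2320 to 3688 UMIs against 1964 to 3992 in cones. The cone shares were thus above the amacrine shares in the 3 STZ groups and not in the control group.

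Many cells with Nrl also carried cone transcripts. Of the Nrl-positive cones, 81 of 140 in Phase I ROP, 138 of 235 with the ω-3 diet and 175 of 345 with the ω-6 diet also had a UMI of the cone receptors Thrb or Rxrg, and 90, 170 and 247 had one of the cone arrestin Arr3. Nrl-positive cones were deeper than the rest, with medians of 2522 against 1586 UMIs in Phase I ROP, 4331 against 2171 with the ω-3 diet and 4172 against 2244 with the ω-6 diet. Relative to the rod markers in the same cells, there were 3.73 Nrl UMIs per 100 rod-marker UMIs in Phase I ROP cones and 5.04 in Phase I ROP rods, 5.68 and 5.35 with the ω-3 diet, 5.77 and 6.27 with the ω-6 diet, and 0.09 and 4.48 in the control group. The classes that should lack Nrl gave like ratios in Phase I ROP, with the ω-3 diet and with the ω-6 diet, namely 5.88, 5.55 and 5.75 for amacrine cells, 5.14, 7.06 and 7.34 for Müller glia and 4.29, 5.99 and 6.93 for bipolar cells. For Nr2e3 the cone and rod values were 5.36 and 6.05, 11.7 and 10.5, 11.4 and 10.98, and 0.43 and 10.7. In the 3 STZ groups, then, the Nrl ratio was 3.73 to 5.77 in cones and 4.29 to 7.34 in the other classes, while in the control group it was 0.09 in cones and 2.78 to 4.48 in the others. The control cone ratio depends on the markers chosen. Of its 1167 rod-marker UMIs, 378 were Sag, 555 Gngt1 and 181 Pdc. Sag was at 1589 to 2642 CPM in control cones and 1569 to 1881 in Phase I ROP cones, and Gngt1 at 3047 to 4077 and 2954 to 3583. The ratio without these markers was not computed.

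**Figure D3:**
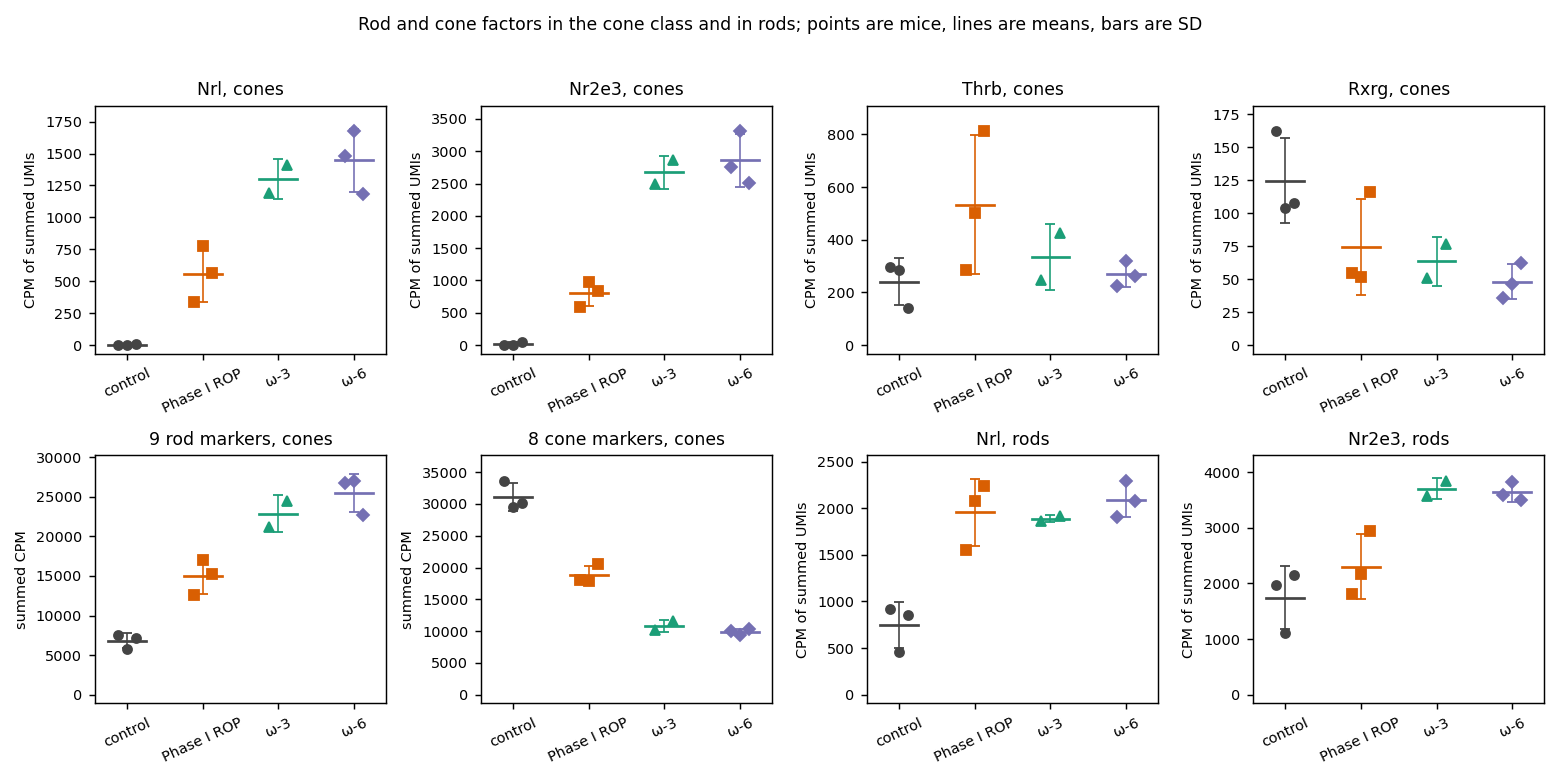
Nrl, Nr2e3, Thrb, Rxrg and summed rod and cone markers in cones, and Nrl and Nr2e3 in rods (CPM), with 1 point per mouse, lines for the mean and bars for the SD of each of the 4 groups. In cones, Nrl, Nr2e3 and the rod marker sum are lowest in the 3 control mice and highest in the 5 mice on the diets, while the cone marker sum has the reverse order.

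The size of the change was compared between cones and rods in a fit with each mouse as a term. It was larger in cones for 3 of the 10 factors, beside 4.83% of all 6270 genes: Nrl (difference 5.33 ± 0.79), Nr2e3 (4.68 ± 0.51) and Samd7 (2.19 ± 0.65, adjusted p = 0.0312). The Samd7 difference lost its call without the filter on low counts, under total-UMI scaling, and without any 1 of the mice other than control replicate 2 (edgeR adjusted p = 0.0663 to 0.218). Between bipolar cells and rods, where 4.94% of all 10952 genes were called in either direction, no factor was called.

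In bipolar cells, which share Otx2, Crx and Neurod1 with photoreceptors, 5 of 7 tested factors were higher in Phase I ROP, beside 21.3% of all 10019 genes and a median of 0.02. Otx2 was at 486, 522 and 489 CPM in the control mice and 961, 1149 and 1270 in the Phase I ROP mice, a change of 0.76 ± 0.12 (adjusted p = 0.00023). Crx was at 124, 93.7 and 126 CPM against 366, 402 and 457, a change of 1.42 ± 0.16 (adjusted p = 8.89e-06). Neurod1 was at 128, 96.1 and 125 CPM against 388, 485 and 516, a change of 1.57 ± 0.16 (adjusted p = 3.81e-06). These 3 genes, which bipolar cells are known to use, were without overlap and were called in 17 of 17 alternatives. Allowing the 10 genes among the variable genes and naming clusters by leading genes alone left this class unchanged. Those alternatives could therefore not differ from the main result.

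The rod genes in bipolar cells were less steady. Nrl was at 24.3, 26.9 and 50.5 CPM in control bipolar cells and 73.8, 87.2 and 90.1 in Phase I ROP bipolar cells (0.87 ± 0.28, adjusted p = 0.0213), a call lost without any 1 of control replicates 1 and 2 and Phase I ROP replicates 2 and 3 (0.0587 to 0.0901). Without the cells in the top 5% of doublet scores its change was -0.21 (adjusted p = 0.68), and Nr2e3, at 0.20 ± 0.36 in all cells of the class, was then lower (-1.08 ± 0.36, adjusted p = 0.0248). Samd7 rose from 3.5, 3.5 and 8.9 to 32.1, 17.8 and 41.2 CPM (2.07 ± 0.48, adjusted p = 0.00325) and was not tested without those cells. Samd7 passed the expression filter only with the Phase I ROP mice, so the filter partly set the count called in this class. The rod markers summed to 645 to 1167 CPM in control bipolar cells and 1408 to 2304 in Phase I ROP bipolar cells. Rorb had non-overlapping groups and did not pass (0.29 ± 0.15, adjusted p = 0.12). Under total-UMI scaling 6 factors were called, the median of all genes was 0.45, and the split of all calls went from 2137 higher and 2399 lower to 3814 and 1291.

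In amacrine cells, which are not known to express most of the factors, 6 of 7 tested were higher in Phase I ROP, beside 18.3% of all 11315 genes and a median of 0.02. The levels were low except for Rorb, which was at 207, 177 and 201 CPM in the control mice and 339, 336 and 396 in the Phase I ROP mice, a change of 0.53 ± 0.13 (adjusted p = 0.00588). Neurod1, which marks some amacrine cells, was at 34.6, 18.4 and 42.2 CPM against 177, 118 and 130 (1.83 ± 0.27, adjusted p = 0.000139). Crx (2.25 ± 0.40), Nr2e3 (2.68 ± 0.48), Nrl (2.19 ± 0.37) and Otx2 (1.30 ± 0.40) were at most 78.5 CPM in every mouse of both groups. All of these were too scarce in the control mice to pass the expression filter without the Phase I ROP mice, so the filter partly set the count called. Without the top 5% of doublet scores the changes of Nrl and Nr2e3 were 1.17 ± 0.40 and 1.93 ± 0.51, both still called, their Phase I ROP UMIs were 60 and 61 in place of 144 and 163, and Otx2 was not tested. The Otx2 call was lost without any 1 of the mice other than control replicate 2 (edgeR adjusted p = 0.0535 to 0.0586). The 9 rod markers rose with them, from a summed 203 to 277 CPM to 638 to 1071, and their part in these changes was not tested. Total-UMI scaling also called 6, with a median of all genes of 0.37 and a split of calls of 3825 higher and 1320 lower in place of 2066 and 2325.

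In Müller glia only 4 factors had enough counts to test, and 3 were higher in Phase I ROP, beside 5.81% of all 4855 genes and a median of 0.00. The 3 were Neurod1, Crx and Nr2e3, which were so scarce in the control mice that they passed the expression filter only with the Phase I ROP mice. The count of 3 was therefore partly set by the filter. Neurod1 was at 3.9, 0 and 5.2 CPM in the control mice and 59.6, 92.7 and 126 in the Phase I ROP mice, which is 3 against 69 UMIs, a ratio of 24.2 (7.95 to 120; edgeR change 4.35 ± 0.61, adjusted p = 0.000461). Crx rose from 9 to 62 UMIs, a ratio of 7.25 (3.58 to 16.6; edgeR adjusted p = 0.00874), and Nr2e3 from 16 to 86, a ratio of 5.66 (3.29 to 10.3; edgeR adjusted p = 0.00947). Samd7 had no UMI in control Müller glia and 18 in Phase I ROP, which is 6.32 times a floor of 3 counts over the group. The lower 95% counting limit of the Samd7 ratio was 4.63. Rorb, the factor that Müller glia did carry at a level like that of neurons, was at 380, 264 and 292 CPM against 342, 443 and 279 (0.05 ± 0.21, adjusted p = 0.893).

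The rod markers moved in the same direction in the glia, from a summed 104 to 458 CPM in the control mice to 766 to 2253 in the Phase I ROP mice. Without the cells in the top 5% of doublet scores, which were 10.6% of control and 15.1% of Phase I ROP Müller glia, only Rorb could be tested, and Crx ranged from 4.7 to 13.6 CPM against 18.4 to 97.1. The number called among Müller glia was also 1 without control replicate 1, where Crx and Nr2e3 missed the threshold (edgeR adjusted p = 0.0568 and 0.0531), and 1 without Phase I ROP replicate 3 (0.0856 and 0.0679). Total-UMI scaling called 3 and moved the median of all genes to 0.16 and the split of all calls from 282 higher and 244 lower to 416 and 155.

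Summed over all cells of a mouse, 9 of the 10 factors were higher in Phase I ROP, beside 24.7% of all 15964 genes and a median of 0.00. In such sums, more cells of a type and more RNA per cell cannot be told apart, and rods were a larger share of the Phase I ROP cells, as given above. Neurod1 led, at 122, 84.5 and 127 CPM in the control mice and 827, 766 and 963 in the Phase I ROP mice (2.67 ± 0.17, adjusted p = 1.78e-06). Samd7 (2.42 ± 0.33), Nrl (2.31 ± 0.27), Thrb (2.16 ± 0.26), Crx (2.00 ± 0.21) and Prdm1 (1.99 ± 0.24) followed. Nr2e3 (1.35 ± 0.31), Otx2 (0.76 ± 0.12) and Rorb (0.59 ± 0.11) changed least of those called, and Rxrg was at 12.2, 6.2 and 7.4 CPM against 7.9, 13.3 and 13.5 (0.15 ± 0.33, adjusted p = 0.725). Total-UMI scaling called 9 as well, with a median of all genes of 0.26 and a split of 5536 higher and 2306 lower in place of 3943 and 3734.

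Over the 5 classes, Crx and Neurod1 were called in 5 of 5, Nrl in 4 of 4, Samd7 in 3 of 3 and Otx2 in 3 of 4 of the classes where they were tested. Nr2e3 was called in 3 of 5, Thrb in 2 of 3, Prdm1 in the only class where it was tested, Rorb in 1 of 5 and Rxrg in 0 of 1. The classes come from the same mice and are not independent of each other. A factor scarce in the control mice was tested only where its Phase I ROP counts passed the filter, which favours calls of higher levels.

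The wider photoreceptor programme gives a setting for these changes. Of 28 rod genes, 17 of 27 tested were higher and none lower in rods, with a median of 0.98, beside 18.4% higher and 19.7% lower among all genes. They included the nuclear receptor gene Esrrb (2.71 ± 0.45), the calcium sensor gene Guca1b (2.42 ± 0.33) and the rod exchanger gene Slc24a1 (2.15 ± 0.37). In cones, 15 of 25 were higher and 2 lower, with a median of 1.33, beside 10.9% and 7.9% of all genes. In bipolar cells 11 of 24 were higher, in amacrine cells 16 of 22 and in Müller glia 9 of 12, with 2, 2 and 0 lower. Among all genes 21.3%, 18.3% and 5.81% were higher there and 23.9%, 20.5% and 5.03% lower, and these shares stand beside the other lists too.

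Of 20 cone genes, 2 of 18 tested in cones were higher and 5 lower, with a median of -0.29, where 7.9% of all genes were lower. The lower ones included the cone transducin genes Gngt2 (-1.94 ± 0.25) and Gnat2 (-1.43 ± 0.24), and the higher ones included the opsin kinase gene Grk1 (1.40 ± 0.32). In rods, 2 of 8 cone genes were higher and 2 lower. Of 32 listed co-regulators and related factors, 31 of which are in the matrix, 11 of 19 were higher and 1 lower in rods (median 1.28). The bipolar class had 14 of 21 higher (1.05), the amacrine class 13 of 20 (0.87) and the cones 4 of 13 (1.06), while Müller glia had 0 of 15 higher and 1 lower. Among them, Mef2d, which binds with Crx at photoreceptor genes, rose by 1.85 ± 0.24 in rods and 1.06 ± 0.36 in cones, and Casz1, a zinc finger regulator of photoreceptor fate, by 2.31 ± 0.36 in cones. Of 18 bipolar regulators, 11 of 17 were higher in bipolar cells (median 0.71), while 5 of 6 were lower in rods (median -1.82), where 19.7% of all genes were lower. For comparison, all 11 tested immediate early genes were higher in rods, with a median of 2.46.

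The comparison of the diets asks whether ω-6 and ω-3 fatty acids differ in their effect on hyperglycemic pups. No factor passed in any class or over all cells, where the calls among all genes were 0.0159% in rods (2 of 12602) and 0% elsewhere (9160 genes tested in the cones, 11942 for bipolar and 13121 for amacrine cells, 7945 for Müller glia and 18821 over all cells). At an unadjusted p under 0.05 edgeR gave 1389 genes for rods, 736 for cones, 503 and 1298 for bipolar and amacrine cells, 283 for Müller glia and 1328 over all cells, and 2, 1, 1, 4, 3 and 2 of the factors. Both genes called in rods, mt-Rnr1 and mt-Rnr2, encode mitochondrial ribosomal RNA. They belong to the 5 noncoding and mitochondrial ribosomal RNAs by which the control libraries stood apart. That sum was 5401 to 5707 CPM in the ω-3 libraries and 7051 to 11550 in the ω-6 libraries, without overlap, and its part in the diet comparison was not tested. Only 2 mice were on the ω-3 diet, and an adjusted p that misses the threshold does not show that the diets act alike.

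Rorb had a negative fitted change in each of the 5 classes and passed the edgeR test in none. In rods it was at 461 and 577 CPM with the ω-3 diet and 345, 334 and 342 with the ω-6 diet, without overlap, a change (ω-6 minus ω-3) of -0.48 ± 0.15 (edgeR adjusted p = 0.342). The change in the other classes was -0.45 ± 0.18 (cones), -0.51 ± 0.18 (bipolar), -0.56 ± 0.17 (amacrine) and -0.57 ± 0.24 (Müller glia), and the groups did not overlap in any of them. The classes come from the same mice and are not separate observations. The share of all genes whose diet groups did not overlap is not given, so the lack of overlap cannot be set against it. Over all cells it was at 385 and 440 CPM against 300, 260 and 238 (-0.56 ± 0.14, adjusted p = 0.682). Of 16 alternatives, only DESeq2 called it lower with the ω-6 diet, in rods (DESeq2 adjusted p = 0.0438) and over all cells (0.0445). The share of all genes that DESeq2 called there is not given, so the call cannot be set against it.

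Prdm1 was at 119 and 84.1 CPM in ω-3 rods and 49.2, 58.7 and 67.5 in ω-6 rods, without overlap (-0.66 ± 0.21, adjusted p = 0.343). In amacrine cells, Samd7 was at 32.1 and 21.1 CPM against 8.9, 12.3 and 8.8 (-1.29 ± 0.35, adjusted p = 0.422) and Crx at 105 and 84.9 against 57.6, 57.2 and 41.7 (-0.77 ± 0.21, adjusted p = 0.422), where the summed rod markers were at 1791 to 1921 with the ω-3 diet and 750 to 1395 with the ω-6 diet. The differences of the rod determinants in rods were 0.28 ± 0.13 for Nrl and 0.11 ± 0.12 for Nr2e3. Crx in rods was at 1271 and 1291 CPM against 999, 1218 and 998 (-0.13 ± 0.14, adjusted p = 0.768).

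**Figure D4:**
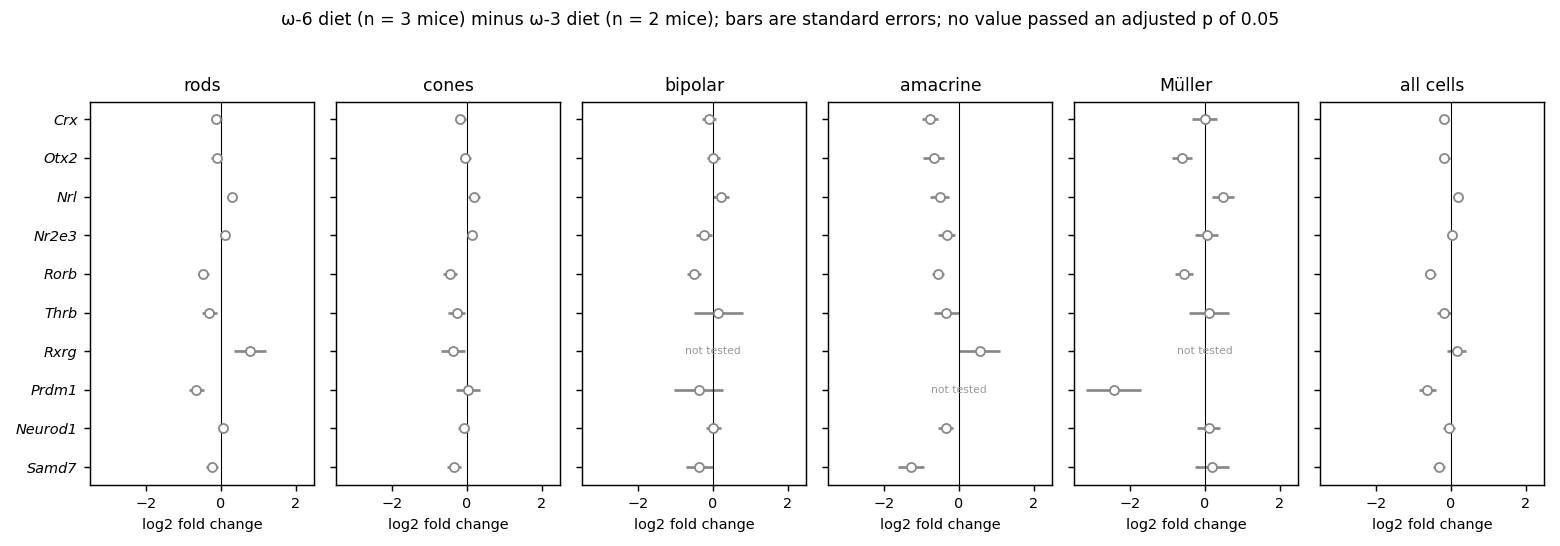
Log2 change of each factor with the ω-6 diet (n = 3 mice) minus the ω-3 diet (n = 2 mice), by class and over all cells, with bars of 1 SE. No point passed an adjusted p of 0.05, and Rorb lies left of 0 in each panel, between -0.45 and -0.57.

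Finally, the genes whose levels were most like those of each factor were sought over the 55 sums of 5 classes in 11 mice, among 10904 genes with enough UMIs. The sums share libraries and classes, so the correlations are given as a description. Nrl was closest to Cngb1, a rod channel gene (r = 0.985), then Nr2e3 (0.983) and Pde6b (0.975). Crx was closest to Lrit2 (0.966), Samd7 to Pitpnm3 (0.970) and Neurod1 to Dlc1 (0.963). Thrb was closest to Krt18 (0.911) and Rxrg to Gulo (0.862), followed by the cone genes Pde6h and Cngb3. Otx2 (closest Zfp385b, 0.877), Prdm1 (Ankrd33b, 0.877) and Rorb (Med13l, 0.810) had no partner as close as those of the rod determinants.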

How the data were processed

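Retinas were dissociated with papain and captured by inDrop (version 3). The authors demultiplexed barcodes with bcbio-nextgen and umis, left out barcodes under 500 reads, and assigned reads with Rapmap to the mouse transcriptome (mm10, GRCm38.p6 per the labels), and they deposited raw UMI counts per gene and cell. Cells with more than 300 genes were clustered with Seurat 5.3.0 and clusters were named from marker lists. Scrublet (scanpy 1.11.5) marked 72 cells, 0.359%, too few to rely on, so no doublets were removed and the top 5% of scores were left out as an alternative.

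Counts were summed per mouse and class (at least 10 cells) and tested with edgeR 4.0.16 (quasi-likelihood, trimmed-mean scaling, expression filter, Benjamini-Hochberg over all genes tested, threshold 0.05). Each fit held the samples of its own comparison alone. The p-values measure the spread between mice. CPM values are untransformed. SE is the log2 change divided by the root of F. The code was tested on simulated data. The genes, gene lists and tests were chosen with earlier results of these data known. All 10 factors are named, as are at most 4 genes per list and class, by the largest called change, and up to 3 of the genes most like each factor. Depth per mouse was 2565568 to 6517776 UMIs. Some genes of the lists are not reported here by name.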

Additional observations from a re-analysis of the deposited data

Results flagged for a closer look

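The change from control to Phase I ROP was larger in cones than in rods for 3 of the 10 factors, by a test of the difference itself. On the log2 scale the difference was 5.33 for Nrl, 4.68 for Nr2e3 and 2.19 for Samd7. For Nrl and Nr2e3 it rests on 1 and 5 UMIs in the 73 control cones. The summed rod markers moved in the same cells, from 5807 to 7506 CPM in control cones to 12530 to 17054 in Phase I ROP cones, and from 11640 to 20672 to 31001 to 43639 in rods, and their part in the difference was not tested. The Samd7 difference was called without control replicate 2 and lost its call without any other 1 of the 6 mice, with an edgeR adjusted p of 0.0663 to 0.218.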

How the results depend on the processing

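Most results kept their direction and side of the threshold: 569 of 601 log2 changes of called factors, 208 of 218 counts of factors called (within 1.5 times) and 250 of 250 class levels (within 1 SD). Of the other changes, 31 lost the call and 1 turned: Nrl in bipolar cells without the top 5% of doublet scores, at -0.21. These counts include settings that could not differ from the main one. Allowing the 10 genes among the variable genes repeated it, as none was among them. Naming clusters by leading genes alone left the cone, bipolar and Müller glia classes unchanged. The cone count of 7 was 4 with sums thinned to equal depth. The Müller glia count of 3 was 5 without a filter on low counts, 6 with all 4 groups in the fit, 1 with thinned sums and 0 without the top 5% of doublet scores, where only Rorb was tested. For these cone and Müller glia alternatives the shares of all genes called are not given here. With 1 mouse left out at a time the counts in Phase I ROP ran from 4 to 7 in rods, 5 to 7 in cones, 4 to 5 in bipolar cells, 5 to 6 in amacrine cells, 1 to 4 in Müller glia and 9 to 9 over all cells, from 2 to 3 for cones against rods and 0 to 0 for bipolar cells against rods, and for the diets from 0 to 0. For the diets, DESeq2 called 1 factor (Rorb) in rods and 1 over all cells. Replicate numbers did not pair the mice (correlations of -0.05 to 0.15 and 0.05 to 0.27), and the replicate block called 1 factor, Prdm1, over all cells for the diets. The shares of all genes that DESeq2 and the replicate block called for the diets are not given here. The 13 to 46 control cones per mouse limit the precision of the cone comparison. The cause of these shifts was not tested.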
